A study of Mus musculus with 33 samples.

Results

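The genes described here are 10 that store, carry or burn fatty acids in the cell: Cidea, Cideb and Plin2 of the lipid droplet, the fatty acid carriers Fabp3 and Fabp5, the lipase Lpl, the transcription factor gene Mlxipl, the triglyceride synthases Dgat1 and Dgat2, and Cpt1a of the mitochondrial outer membrane. They were chosen by name, with results of these arrays already known, out of 27672 genes named on the array. All probes annotated to them by current symbol or an older synonym (Adfp for Plin2) were taken, which gave 16 of 41174 probes. Of the 10 genes 9 passed the filter on low signals and were among the 15793 genes tested. Cideb did not pass.

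Each of 33 Agilent arrays was hybridised with amplified RNA of 1 mouse blastocyst of the strain (C57BL/6NxDBA/2)F1. For a clone, a donor nucleus was put into an oocyte without its own. Clones are called males or females by the sex of the donor. Donor cells were male (n = 4) and female (n = 4) adult Purkinje neurons of the cerebellum, male (n = 4) and female (n = 4) adult CA1 pyramidal neurons of the hippocampus, neonatal Sertoli cells of the testis (male, n = 4) and cumulus cells, which surround the oocyte (female, n = 3). Male (n = 7) and female (n = 3) blastocysts from in vitro fertilisation (IVF) were the controls. All clones, and no control, had received the histone deacetylase inhibitor trichostatin A at 50 nM, for 1 h during activation, 5 h together with cytochalasin B and 2 h after that. Embryos were grown for 96 h, and every group carried the same F1 background with no engineered allele named. How many donors or cloning sessions stood behind a group is not given in the labels, so p-values measure the spread between these blastocysts, which may be partly technical.

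Values are log2 of the signal over the 75th percentile of its own array, so that 0 stands for that percentile. A floor of -3.43 was common to all arrays. An earlier experiment, with another scanner and software version, supplied the 13 arrays of IVF blastocysts and cumulus clones, and the other 20 were made for this series. For 5 of the 6 clone groups, cloning, trichostatin A and array set therefore cannot be told apart in a comparison with IVF. For cumulus clones the array set is shared, but not the slide, and cloning and trichostatin A cannot be told apart. The 75th percentile itself was low in Purkinje clones, 229.7 to 659.1 in males and 353.8 to 838.0 in females, where the other groups had 904.3 to 1465.6. Between 45.0% and 62.5% of the probes on an array were well above background, with the lowest shares, 45.0% to 46.0%, in Sertoli clones. An array reads the whole embryo, so fewer cells of a kind and less RNA per cell cannot be told apart. Markers of the blastocyst were present: all 6 of the trophectoderm, the outer layer that forms the placenta, and the 4 of the inner cell mass on the array were well above background on all 33 arrays. The adipocyte hormones and secreted factors Adipoq, Retn and Cfd were well above background on 2, 5 and 6 arrays, and their summed level did not pass 0.538 times the 75th percentile on any array, where 3 floors make 0.279. Of the 4 markers listed for each donor cell type, Pcp2, Itpr1 and Car8 of Purkinje cells were well above background on 33, 27 and 23 arrays and Calb1 on 0. Of pyramidal neurons Wfs1, Camk2a and Slc17a7 were so on 33, 18 and 1 and Neurod6 on 0, and of Sertoli cells Dhh, Amh and Sox9 on 27, 9 and 6 and Wt1 on 0. Of cumulus cells Foxl2, Has2, Ptx3 and Tnfaip6 were so on 29, 5, 2 and 2. Wfs1 was higher than in IVF by 1.20, 1.84 and 0.97 in Purkinje, CA1 and Sertoli males and by 0.91 and 1.52 in Purkinje and CA1 females, and in cumulus clones the difference was 0.87 (adjusted p = 0.0813 by limma). The summed level of the pyramidal list was 14.2 to 18.3, 12.4 to 36.7 and 10.1 to 17.4 times the 75th percentile in Purkinje, CA1 and Sertoli males, against 4.93 to 9.38 in male IVF, and it was 10.3 to 11.8, 14.0 to 20.7 and 8.49 to 14.7 in Purkinje, CA1 and cumulus females, against 4.72 to 6.87 in female IVF. These sums add unlogged levels, so Wfs1 makes up nearly all of them, with the other markers of the list at or near the floor. The part of the donor cell markers in the comparisons of clones with IVF was not tested.

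As background, a lipid droplet is a core of triglyceride under a single layer of phospholipid that carries proteins. Perilipin 2, the product of Plin2, coats droplets in most cells and shields them from lipases, and the CIDE proteins Cidea and Cideb sit at contacts between droplets and help them grow by lipid transfer. Droplets serve the early embryo as a fuel store, and fatty acids leave them for the mitochondria through carnitine palmitoyltransferase 1, which Cpt1a encodes and which sets the rate of entry. Fatty acid binding proteins ferry the acids through the cytosol, Lpl frees them from circulating triglyceride, and DGAT enzymes close the last step of triglyceride synthesis. Mlxipl encodes ChREBP, a factor that senses glucose and binds paired E-boxes at genes of glycolysis and fat synthesis.

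Promoter sequences are shown for 3 members that the RefSeq table covers. They are Mlxipl, higher on average than IVF in every clone group, Cpt1a, whose male clones lay apart from IVF, and Fabp3, which differed between donors. The sequences are the 250 bases before the annotated gene start in build GRCm38.p6, 5′ to 3′ along the gene, and capitals mark the E-box CACGTG, searched on both strands. Mlxipl has a pair of annotated starts, and the letters at the upstream one hold an E-box that begins 98 bases before the start.
Mlxipl, upstream start, chr5:135089640-135089889, plus strand: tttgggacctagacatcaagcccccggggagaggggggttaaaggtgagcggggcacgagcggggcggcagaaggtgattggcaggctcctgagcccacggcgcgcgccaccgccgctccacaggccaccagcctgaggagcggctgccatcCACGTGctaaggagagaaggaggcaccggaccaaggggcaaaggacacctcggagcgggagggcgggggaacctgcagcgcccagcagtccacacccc
Mlxipl, downstream start, chr5:135106641-135106890, plus strand: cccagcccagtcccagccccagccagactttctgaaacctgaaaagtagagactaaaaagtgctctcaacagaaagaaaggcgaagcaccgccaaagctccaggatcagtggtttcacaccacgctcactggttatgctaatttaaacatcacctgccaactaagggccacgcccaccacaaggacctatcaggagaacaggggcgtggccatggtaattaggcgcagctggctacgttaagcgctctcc
Cpt1a, chr19:3323051-3323300, plus strand: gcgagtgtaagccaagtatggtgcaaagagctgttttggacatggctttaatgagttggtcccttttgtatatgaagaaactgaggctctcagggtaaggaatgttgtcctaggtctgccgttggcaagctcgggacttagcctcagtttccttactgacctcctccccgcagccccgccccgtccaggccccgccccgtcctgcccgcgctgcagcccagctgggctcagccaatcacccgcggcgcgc
Fabp3, chr4:130308488-130308737, plus strand: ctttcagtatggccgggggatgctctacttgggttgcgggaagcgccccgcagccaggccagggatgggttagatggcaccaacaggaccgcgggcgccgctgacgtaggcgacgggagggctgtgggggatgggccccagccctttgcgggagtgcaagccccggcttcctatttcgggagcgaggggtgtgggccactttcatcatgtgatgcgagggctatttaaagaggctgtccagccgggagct
Entries of 5 members, 6 in all, were searched, and 1 of the 6 held the motif, against 6.02% of 32851 promoters of the same length. Cidea was not searched. A match of letters is a description and not a binding site. Of the Mlxipl windows the upstream one had 69.2% G and C and the downstream one 53.2%, against a median of 52.4% over all promoters, and those of Cpt1a and Fabp3 had 59.6% and 64.8%.

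**Figure D1:**
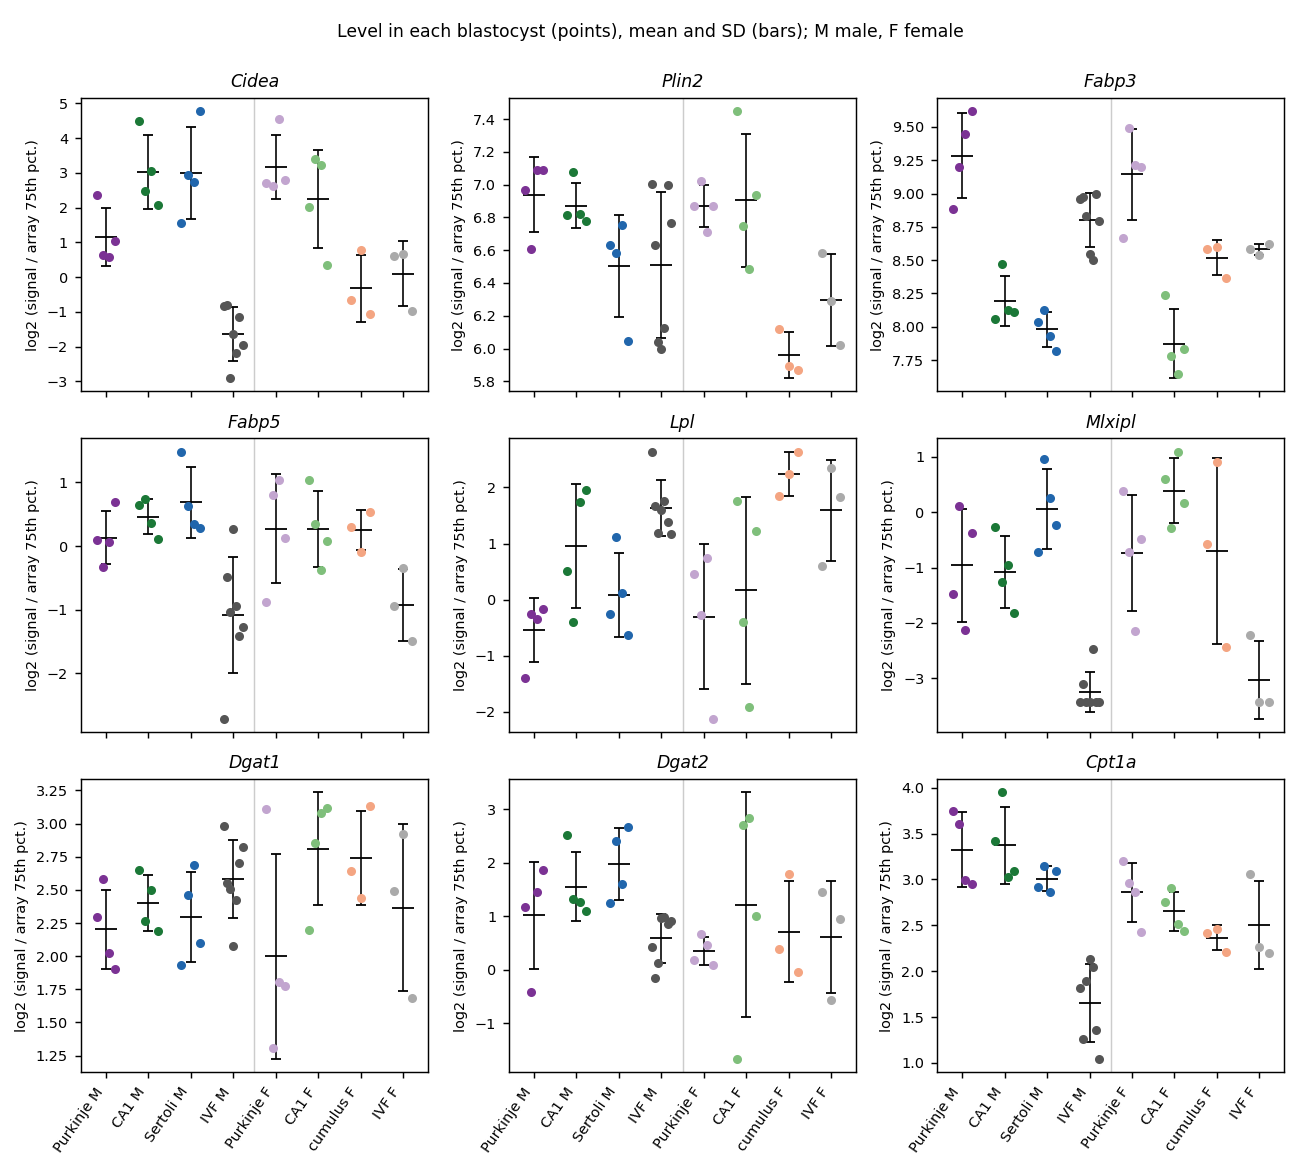
Level of the 9 measured genes in each blastocyst, as log2 of the signal over the 75th percentile of the array (vertical axis, scaled per gene), by group (horizontal axis, males left of the line, females right). Points are single blastocysts and bars the mean and SD. Cidea, Mlxipl and Cpt1a of the male clones lie above all 7 male IVF points, whereas Plin2 and Dgat1 overlap.

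Among the droplet proteins, Cidea had the widest range. Cidea read 2.37, 0.63, 0.59 and 1.04 in male Purkinje clones, 4.50, 2.49, 3.04 and 2.07 in male CA1 clones and 1.55, 2.95, 2.72 and 4.77 in Sertoli clones. The 7 male IVF blastocysts ran from -2.90 to -0.80 with a median of -1.64. Every male clone therefore lay above every male IVF blastocyst. Means were 1.16 ± 0.83, 3.03 ± 1.06 and 3.00 ± 1.33 (SD, n = 4 each) in Purkinje, CA1 and Sertoli clones, against -1.64 ± 0.77 (n = 7) in IVF, which are differences of 2.79, 4.66 and 4.64 or 6.93-fold, 25.3-fold and 24.9-fold. These contrasts were known when the genes were chosen, so they are given here without a test.

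In females, Cidea read 2.72, 2.62, 4.56 and 2.80 in Purkinje clones and 2.02, 3.41, 3.24 and 0.35 in CA1 clones. It read -0.67, 0.77 and -1.06 in cumulus clones, against 0.62, 0.66 and -0.97 in IVF blastocysts. The Purkinje clones stood clear of the IVF values, 1 of the 4 CA1 clones fell among them, and cumulus clones spanned their whole range. The differences from IVF were 3.07 for Purkinje, 2.15 for CA1 and -0.42 for cumulus clones. The order of the 8 groups by mean ran from female Purkinje (3.17 ± 0.93, n = 4), male CA1 and Sertoli through female CA1 (2.25 ± 1.41, n = 4) and male Purkinje to female IVF (0.10 ± 0.93, n = 3), cumulus (-0.32 ± 0.96, n = 3) and male IVF. The neighbours among the highest 4 groups differed by less than an SD of either, as did cumulus clones and female IVF.

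Cideb, a paralogue known mainly from liver and gut, lay on the floor on all 33 arrays. It was well above background on 1 of them, a female IVF blastocyst, so at this signal no difference could be measured.

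Plin2 was bright and varied little. It ranged from 6.61 to 7.09 in male Purkinje, 6.78 to 7.08 in male CA1 and 6.05 to 6.76 in Sertoli clones, against 6.00 to 7.0 (median 6.63) in male IVF. In females it ranged from 6.71 to 7.02 in Purkinje, 6.49 to 7.45 in CA1 and 5.87 to 6.12 in cumulus clones, against 6.02 to 6.58 in IVF. The sets overlapped except that all 4 female Purkinje clones lay above the 3 female IVF blastocysts. Differences from IVF were between -0.34 in cumulus and 0.61 in female CA1 clones, and none passed the threshold.

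The carriers Fabp3 and Fabp5, whose proteins bind the same kind of ligand, had differences from IVF of opposite sign in CA1 and Sertoli clones and of the same sign in Purkinje clones. Fabp3, best known from heart and muscle, read 8.88, 9.20, 9.45 and 9.62 in male Purkinje clones, 8.06, 8.47, 8.12 and 8.11 in male CA1 clones and 8.04, 8.13, 7.93 and 7.82 in Sertoli clones, against 8.5 to 9.0 (median 8.83) in male IVF. It read 8.67, 9.49, 9.21 and 9.20 in female Purkinje, 8.24, 7.78, 7.64 and 7.83 in female CA1 and 8.59, 8.60 and 8.37 in cumulus clones, against 8.58, 8.54 and 8.62 in female IVF. CA1 and Sertoli clones lay below all IVF blastocysts of their sex, and female Purkinje clones above them. The differences were 0.49, -0.61 and -0.82 in Purkinje, CA1 and Sertoli males, and 0.56, -0.71 and -0.06 in Purkinje, CA1 and cumulus females. In Purkinje clones the difference from IVF turned sign with the scaling, to -0.07 in males and -0.20 in females after quantile normalization, to -0.02 in males after normexp background correction and to -0.05 in females with scaling to the array median. By mean, the groups ran from male Purkinje (9.29 ± 0.32, n = 4) and female Purkinje through male IVF (8.80 ± 0.20, n = 7), female IVF (8.58 ± 0.04, n = 3), cumulus (8.52 ± 0.13, n = 3), male CA1 and Sertoli to female CA1 (7.87 ± 0.26, n = 4). Purkinje males and females, cumulus clones and female IVF, and Sertoli and female CA1 clones were neighbours that differed by less than the larger of their SDs.

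Fabp5, the epidermal carrier, was higher on average in every clone group. Its level was -0.32 to 0.69 in male Purkinje, 0.11 to 0.74 in male CA1 and 0.28 to 1.48 in Sertoli clones, against -2.71 to 0.27 (median -1.03) in male IVF. In females it was -0.87 to 1.03 in Purkinje, -0.38 to 1.04 in CA1 and -0.09 to 0.54 in cumulus clones, against -1.49 to -0.35 in IVF. Sertoli clones cleared all IVF males and cumulus clones all IVF females, and the other groups overlapped. Differences ran from 1.17 in cumulus to 1.77 in Sertoli clones.

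Lpl, which hydrolyses triglyceride at the cell surface, went the other way in 5 of the 6 clone groups. It read -1.40, -0.26, -0.34 and -0.17 in male Purkinje clones, 0.51, -0.40, 1.74 and 1.96 in male CA1 clones and -0.25, 1.12, 0.12 and -0.64 in Sertoli clones, against 1.17 to 2.63 (median 1.59) in male IVF. Purkinje and Sertoli clones lay below all 7, at differences of -2.17 and -1.54, whereas CA1 clones spread across them at -0.68. Female values were 0.45, -0.28, 0.74 and -2.12 in Purkinje, 1.76, -0.40, -1.91 and 1.23 in CA1 and 1.85, 2.24 and 2.62 in cumulus clones, against 0.60, 2.35 and 1.83 in IVF, at differences of -1.89, -1.42 and 0.65. A dimmer Lpl probe, on the floor in every Purkinje and Sertoli clone, gave -1.18, -0.29 and -1.18 in the males and -0.44, -0.39 and 0.52 in the females.

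Markers of the primitive endoderm, the layer that forms the yolk sac, differed in direction among themselves. The transcription factor Sox7 averaged -2.85, -3.43 and -2.46 in Purkinje, CA1 and Sertoli males, against -0.01 in male IVF, and -3.19, -3.43 and -0.78 in Purkinje, CA1 and cumulus females, against 1.20 in female IVF. Of the 5 markers on the list 2 were lower in 5 of the 6 comparisons with IVF, Sox7 and Gata4, and Gata4 alone in cumulus clones. Gata4 lay on the floor in every Purkinje, male CA1 and Sertoli clone. For female CA1 donors 3 of 4 of its values were there, and for cumulus donors 2 of 3. The IVF means of Gata4 were -2.63 in males and -2.07 in females, so its differences depend on where the floor is set. Gata6 was higher in Purkinje and Sertoli males. Sox17, at differences of -2.65 to -0.26, and Pdgfra, at -1.09 to 0.31, passed in no comparison. The summed level of the list was 85.5 to 113 times the 75th percentile in male Purkinje, 51.8 to 78.2 in male CA1 and 90.4 to 104.6 in Sertoli clones, against 52.3 to 99.2 in male IVF. It was 69.6 to 148, 83.5 to 136 and 62.5 to 115 in Purkinje, CA1 and cumulus females, against 78.5 to 113 in female IVF. These sums add unlogged levels, so Gata6, the brightest of the markers, makes up most of them, and falls of dimmer markers hardly show. The part of primitive endoderm cells in the Lpl values was not tested.

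Mlxipl was higher on average in all 6 clone groups than in IVF. Its brighter probe read -1.48, 0.12, -2.12 and -0.37 in male Purkinje clones, -0.27, -1.26, -0.95 and -1.83 in male CA1 clones and -0.72, 0.96, 0.25 and -0.24 in Sertoli clones. Male IVF blastocysts ran from -3.43 to -2.48, and 5 of the 7 lay on the floor. Female clones read 0.39, -0.73, -2.14 and -0.49 (Purkinje), 0.59, -0.29, 1.09 and 0.17 (CA1) and -0.58, 0.91 and -2.44 (cumulus), against -2.21, -3.43 and -3.43 in female IVF, of which 2 lay on the floor. At this probe all clones were above all IVF blastocysts of their sex except 1 cumulus clone.

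Mlxipl differences from IVF were 2.28, 2.17 and 3.31 in Purkinje, CA1 and Sertoli males and 2.28, 3.41 and 2.32 in Purkinje, CA1 and cumulus females, 4.51-fold to 10.7-fold. With most IVF values on the floor, these sizes depend on where the floor is set. A second Mlxipl probe of nearly the same brightness gave 1.81, 1.61 and 2.84 in males and 1.17, 2.22 and 1.39 in females, and its IVF means were -2.96 ± 0.62 (n = 7) and -2.14 ± 0.95 (n = 3) with 3 and 0 values at the floor. At this probe both Purkinje groups overlapped IVF, with a lowest male Purkinje value of -1.98 against a highest male IVF value of -1.77, and a lowest female Purkinje value of -2.06 against a highest female IVF value of -1.35. Its CA1, Sertoli and cumulus clones all lay above IVF. Both probes had the same sign in all 6 comparisons.

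The triglyceride synthases lay nearer to IVF on average. Dgat1, the enzyme of the endoplasmic reticulum, had means between 2.00 ± 0.77 in female Purkinje and 2.81 ± 0.43 in female CA1 clones (n = 4 each), against IVF means of 2.58 ± 0.29 (males, n = 7) and 2.37 ± 0.63 (females, n = 3). Its differences from IVF lay between -0.38 and 0.44 and those of its other probe between -0.37 and 0.42. Dgat2, which also acts at the droplet surface, had 1.02 ± 1.00, 1.55 ± 0.65 and 1.98 ± 0.67 in Purkinje, CA1 and Sertoli males, against 0.59 ± 0.46 in male IVF. All CA1 and Sertoli males, which read 1.1 to 2.67, lay above the highest male IVF value of 0.98, at differences of 0.97 and 1.39 that did not pass the threshold. In females the spread was wide, with -1.67, 2.70, 2.84 and 1.01 in CA1 clones against 1.46, -0.57 and 0.95 in IVF.

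Probes of Dgat2 disagreed in size. Its dimmer probes gave 2.22 and 0.47 in male CA1 clones and 2.52 and 0.69 in Sertoli clones, with 6 of the 7 male IVF values on the floor at each.

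Cpt1a, the gate into mitochondrial oxidation, lay apart from IVF in the male clones. Levels were 3.75, 3.60, 3.00 and 2.95 in male Purkinje clones, 3.42, 3.95, 3.02 and 3.09 in male CA1 clones and 2.92, 3.15, 2.87 and 3.1 in Sertoli clones, against 1.04 to 2.13 (median 1.81) in male IVF. Every male clone lay above every male IVF blastocyst, at differences of 1.68, 1.72 and 1.36, or 3.20-fold, 3.30-fold and 2.57-fold. Females overlapped, with 2.43 to 3.20 in Purkinje, 2.43 to 2.90 in CA1 and 2.21 to 2.46 in cumulus clones, against 2.19, 2.26 and 3.06 in IVF, and differences of 0.36, 0.15 and -0.14. The female IVF mean of 2.50 ± 0.48 (n = 3) was itself above the male one of 1.65 ± 0.42 (n = 7), and whether the clone differences depend on sex was not tested. A dim second probe of Cpt1a, on the floor in 6 of 7 male and 2 of 3 female IVF blastocysts, gave 0.50, 0.32 and 0.67 in males and -0.01, -0.28 and -0.06 in females.

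**Figure D2:**
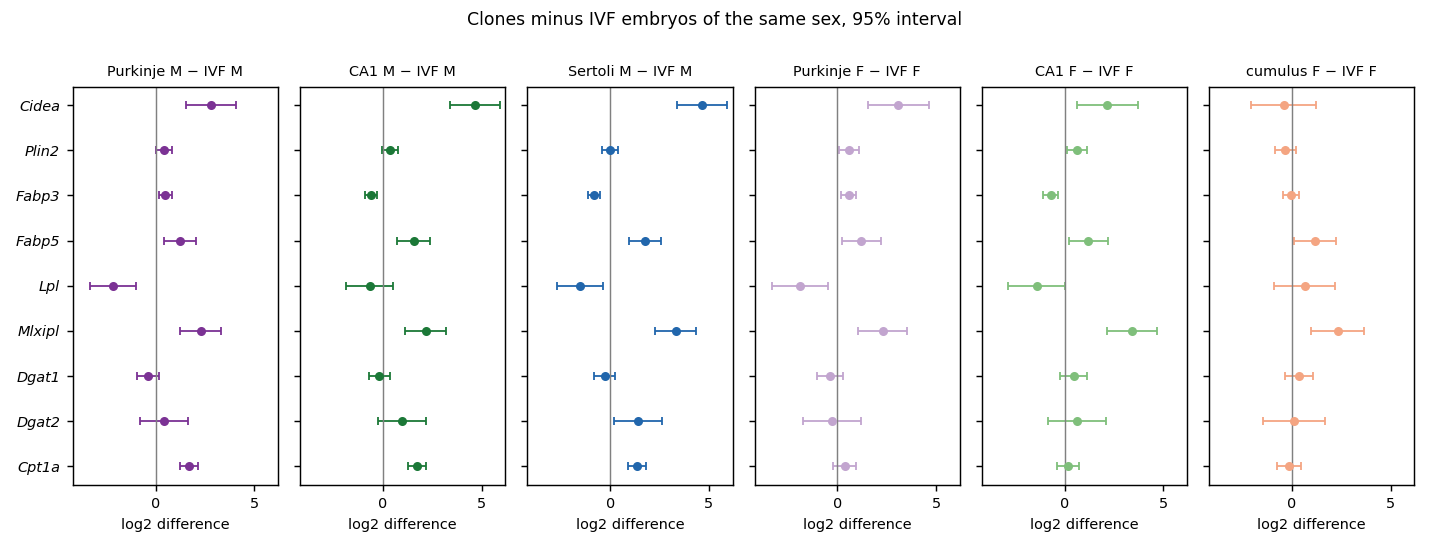
Difference in mean log2 level of clones minus IVF blastocysts of the same sex (horizontal axis), with its 95% interval, for 9 genes (rows) in 6 comparisons (panels). Cidea reaches 4.66 in male CA1 and 4.64 in Sertoli clones, and Mlxipl is at 2.17 or above in all 6 panels.

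Counts of members past an adjusted p of 0.05 are set beside the share of all genes past it, and nothing is read from them because the genes were chosen with these contrasts known. In male Purkinje clones 5 members were higher and 1 lower (28.6% of all genes called, 18.3% higher and 10.3% lower). In male CA1 clones 4 were higher and 1 lower (31%, 17.7% and 13.3%), and in Sertoli clones 4 and 2 (25.8%, 15% and 10.8%). In female Purkinje clones 3 were higher (19.7%, 13% and 6.67%), in female CA1 clones 1 was higher and 1 lower (13.3%, 8.41% and 4.88%), and in cumulus clones 1 was higher (5.31%, 1.95% and 3.36%). Medians over the 9 members were 0.49, 0.97 and 1.36 in the males, against 0.07, 0.01 and 0.00 over all genes, and 0.56, 0.61 and 0.10 in the females, against 0.08, 0.07 and -0.02. Groups did not overlap for 4, 5 and 7 of 9 members in Purkinje, CA1 and Sertoli males against IVF (12.3%, 19.6% and 13.9% of all genes) and for 4, 2 and 1 in Purkinje, CA1 and cumulus females (25.8%, 21.4% and 25.5%). Comparisons within a sex share their IVF arrays. Some calls were lost in the 33 fits that left out 1 array each. Arrays of groups not compared enter only through what all groups share, such as the spread and, for Mlxipl, the choice of probe. The call of Lpl in Sertoli clones was close to the threshold with all arrays (limma adjusted p = 0.0483). It was lost in 20 fits, at differences of -1.88 to -1.30 and an adjusted p of up to 0.147 (limma): without Sertoli replicate 1, 3 or 4, male IVF replicate 1, 2, 4, 5, 6 or 7, or any of 11 arrays of other groups. That of Mlxipl in female Purkinje clones was lost in 13. In all 13 the second probe was the brighter one and stood for the gene. The difference there was 1.36 and 1.1 without Purkinje replicate 2 or 4, and 1.17 in the other 11 fits. The Mlxipl call in cumulus clones was lost in 15, with a lowest value of 1.07 without cumulus replicate 2, also at the second probe. With all arrays the second probe gave 1.39 in that comparison, against 2.32 at the brighter one. The lowest Mlxipl values were 2.06 in female CA1 clones, without CA1 replicate 3, and 1.52 in male Purkinje clones, without Purkinje replicate 2. Both were values of the second probe, so the change of probe is part of the drop, and both calls stayed. Fabp3 lost its call in 6 fits for female and 2 for male Purkinje clones, and Fabp5 in 2 for male Purkinje clones.

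The balance of the calls depended on the scaling. Of all genes called in male Purkinje clones against IVF 63.9% were higher, and 29.3%, 47.4% and 80.9% after scaling to the array median, quantile normalization and normexp background correction. In female Purkinje clones the shares were 66.2%, and 14.1%, 46.5% and 85.8%.

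Donor cell types were then set against each other, to see which members differ between clones of different cells. These 4 comparisons are within 1 array set, but each group lay on its own slide and each cell type had its own scan day. Donor, slide and scan day therefore cannot be told apart, nor, against Sertoli clones, adult and neonatal donors. The members were chosen with results of these arrays known, which may include donor differences, so the p-values of members are a description. Fabp3 was the member that passed the threshold. It rose by 1.09 (SE 0.18, adjusted p = 0.000111) in male Purkinje clones relative to male CA1 clones, at 9.29 ± 0.32 against 8.19 ± 0.19, and by 1.27 (SE 0.18, adjusted p = 6.58e-05) in the females, at 9.14 ± 0.34 against 7.87 ± 0.26. Against Sertoli clones (7.98 ± 0.13) the male Purkinje difference was 1.31 (SE 0.18, adjusted p = 6.06e-05), with n = 4 in each group. In all 3 comparisons the 4 Purkinje clones lay above the 4 others, as 1 of 9 members did (21%, 12.6% and 10.3% of all genes did not overlap). CA1 and Sertoli clones differed by 0.21 (95% interval -0.15 to 0.57, adjusted p = 0.486).

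The bright end of the Purkinje arrays moved with these Fabp3 values. The signal that the brightest 0.1% of probes exceeded was 365 to 556 times the 75th percentile in male and 321 to 561 times in female Purkinje clones, against 241 to 293 and 206 to 299 in male and female CA1 and 221 to 268 in Sertoli clones. Before scaling, the Fabp3 signal was 180512 to 353810 in male Purkinje, against 293618 to 344913 in male CA1 and 216279 to 282616 in Sertoli clones, and 253264 to 341304 in female Purkinje, against 292936 to 322407 in female CA1 clones. These ranges overlap, and the groups stood apart once each array was divided by its 75th percentile, which was low in Purkinje clones. The probe was saturated on 0 of 33 arrays. After quantile normalization, which gives all arrays the same bright end, Fabp3 differed by 0.18, 0.34 and 0.33 (adjusted p = 0.329, 0.0805 and 0.128). After normexp background correction it differed by 0.48, 1.04 and 0.76 (adjusted p = 0.338, 0.148 and 0.142). With the 5 dimmest Purkinje arrays (75th percentile below 500) left out, the males kept 0.85 and 1.06 (adjusted p = 0.0133 and 0.0115), and the females, with 1 Purkinje array left, 0.80 (adjusted p = 0.239). That single array is assumed to vary like the arrays of the other groups.

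**Figure D3:**
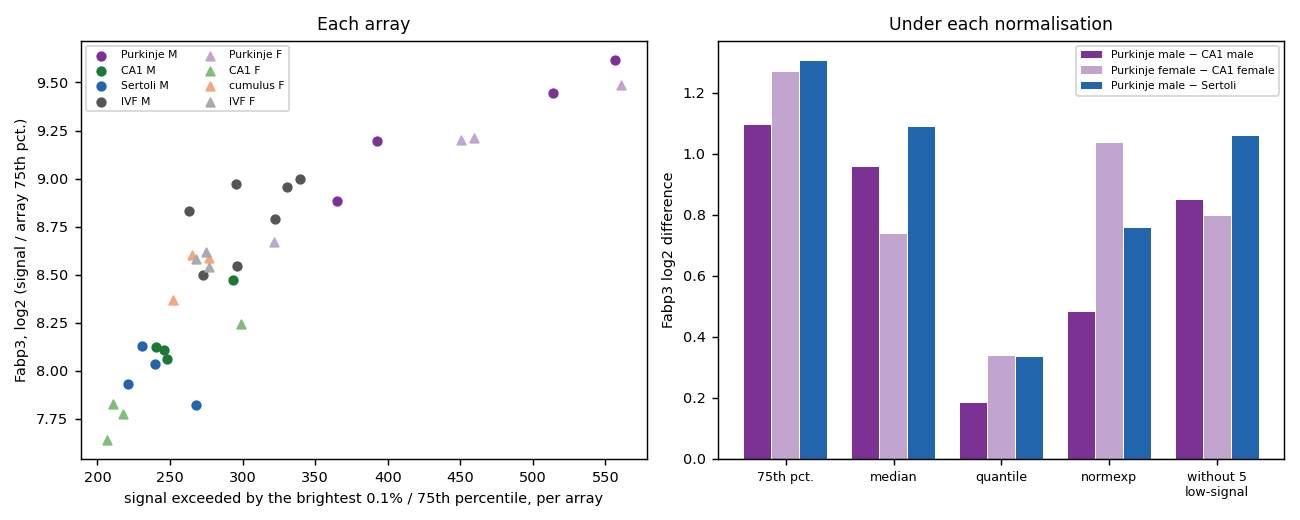
Left, Fabp3 level of each array (vertical axis) against the signal exceeded by its brightest 0.1% of probes over the 75th percentile (horizontal axis), by group. Right, the Fabp3 log2 difference (bars from 0) between Purkinje and CA1 or Sertoli clones under 5 settings, which falls to between 0.18 and 0.34 after quantile normalization.

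Trophectoderm markers also ran higher in Purkinje clones than in CA1 and Sertoli clones. Their summed level was 934 to 1464 times the 75th percentile in male Purkinje, against 743 to 900 in male CA1 and 646 to 741 in Sertoli clones, and 987 to 1239 in female Purkinje, against 665 to 850 in female CA1 clones. In IVF blastocysts it was 813 to 1267 in males, which overlaps male Purkinje clones, and 757 to 919 in females. Of the 6 markers 3 were higher in male Purkinje than in male CA1 clones, 1 in the females and 3 against Sertoli clones, with none lower. Of all genes 10.9%, 6.19% and 3.36% were higher in these comparisons. The sums add unlogged levels, so Krt8 and Krt18, the brightest of the 6, make up most of them. Like Fabp3, these are bright probes divided by a 75th percentile that was low in Purkinje clones. The sums were not recomputed under another scaling. The part of the trophectoderm markers in the Fabp3 difference was not tested.

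No other member passed between donors. Cidea was lower in male Purkinje than in male CA1 clones by 1.87 (95% interval of the difference -3.29 to -0.44, adjusted p = 0.0599) and than in Sertoli clones by 1.84 (adjusted p = 0.13), whereas in females Purkinje minus CA1 was 0.92 (-0.50 to 2.35, adjusted p = 0.455). Lpl differed by -1.49 between male Purkinje and male CA1 clones (adjusted p = 0.109) and Dgat1 by -0.81 in the females (adjusted p = 0.0816). Between CA1 and Sertoli clones Mlxipl differed by -1.14 (-2.31 to 0.03, adjusted p = 0.203). Counts were 1 of 9 members, higher, for Purkinje minus CA1 in males (18.5% of all genes called, 10.9% higher and 7.59% lower), in females (11%, 6.19% and 4.83%) and for Purkinje minus Sertoli (4.79%, 3.36% and 1.42%), and 0 for CA1 minus Sertoli (11.8%, 5.52% and 6.32%), where limma gave 0 members at an unadjusted p under 0.05 as well.

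**Figure D4:**
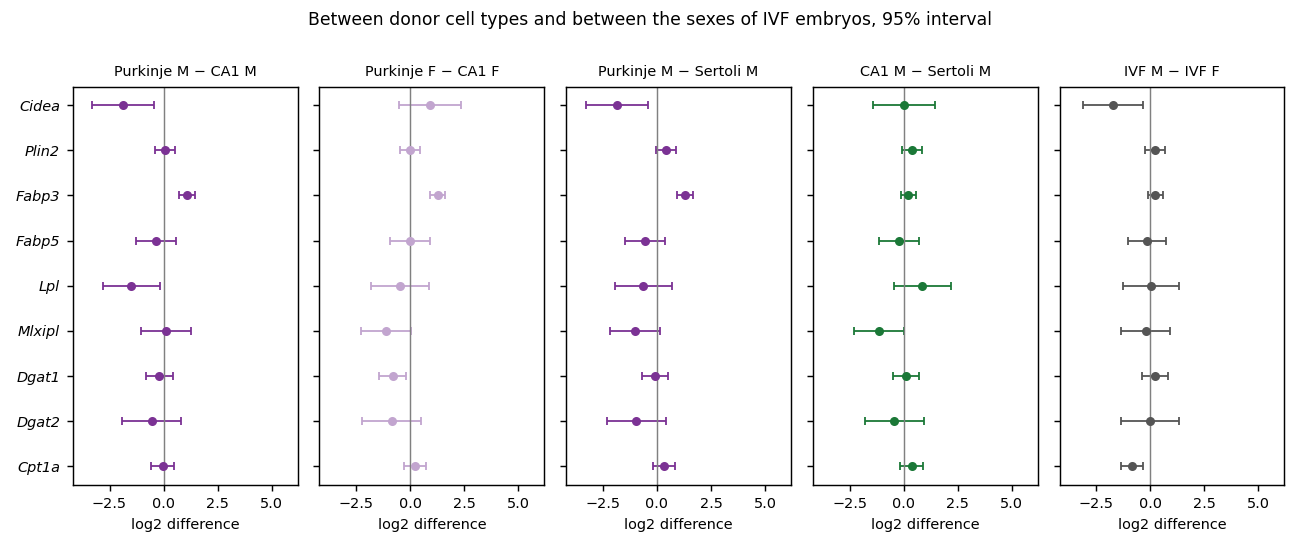
Difference in mean log2 level (horizontal axis) with its 95% interval for the 9 genes (rows), between donor cell types of the same sex and between male and female IVF blastocysts (panels). Fabp3 stands at 1.09, 1.27 and 1.31 in the Purkinje panels.

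The interaction asked whether the Purkinje minus CA1 difference depended on sex. None of 9 members passed (2.17% of all genes called, 1.04% higher and 1.13% lower), and 1, Cidea, had an unadjusted p under 0.05 in limma. Its value was -2.79 for male minus female (95% interval -4.81 to -0.77, adjusted p = 0.139), as its male Purkinje clones were below, and its female Purkinje clones above, the CA1 clones of their sex.

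Male and female IVF blastocysts, all on earlier arrays, were compared in the same fit, with the spread estimated over all 33 arrays. No member passed (0.437% of all genes called, 0.114% higher and 0.323% lower), while 2 had an unadjusted p under 0.05 in limma. Of the 69 genes called 26.1% were higher in males. With the slide as a fixed block on the IVF arrays alone 44 genes were called, 93.2% of them higher, and 0 members. That fit compares the sexes only on the 1 slide that held both, so its calls rest on 1 male against 3 females. Cpt1a had a male minus female difference of -0.86 (95% interval of the difference -1.36 to -0.35, adjusted p = 0.128), and all 7 males lay below all 3 females (2.46% of all genes did not overlap). For Cidea it was -1.74 (-3.13 to -0.35, adjusted p = 0.269). On the slide that held both sexes, with 1 male, the differences were -0.46 for Cpt1a and -2.28 for Cidea, and Mlxipl turned from -0.22 over all arrays to 0.55.

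Members did not vary as a block within groups. Over the deviations of 33 arrays from their group means, the highest Pearson r among the pairs was 0.58, between Plin2 and Fabp3, then 0.41 between Cidea and Dgat2. The lowest were -0.51 between Fabp5 and Dgat1 and -0.49 between Fabp3 and Dgat1. Cidea and Cpt1a had r = 0.71 over the 33 levels and 0.16 over the deviations, and Cidea and Mlxipl 0.66 and 0.14. These are descriptions over arrays that share groups, slides and scaling.

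The genes whose levels were most like Cidea over the 33 arrays, among 15304 compared, were St6galnac2, Ddit4l, Reep1, 1500009L16Rik and Bdh1, at r = 0.89, 0.88, 0.87, 0.86 and 0.85. Over deviations from group means they were Pitx1, Tmem254a, Krtdap, Slc39a4 and Fbxl20, at r = 0.73, 0.71, 0.71, 0.68 and 0.67. No gene was on both lists.

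Other genes of lipid handling were taken from 7 lists of 102 genes chosen by function, with earlier results known. Against IVF, droplet proteins had 3, 2 and 2 of 11 tested genes higher and 2, 2 and 1 lower in Purkinje, CA1 and Sertoli males, and 1, 1 and 0 higher and 2, 0 and 1 lower in Purkinje, CA1 and cumulus females. Of all genes 18.3%, 17.7% and 15% were higher and 10.3%, 13.3% and 10.8% lower in these males, and 13%, 8.41% and 1.95% higher and 6.67%, 4.88% and 3.36% lower in these females, and the counts of every list below stand beside the same shares. Cidec, the third CIDE gene, was higher in 4 comparisons, by 1.56, 1.97 and 1.05 in the males and 1.43 in female CA1 clones, and Rab18, a droplet GTPase, by 1.11 and 0.88 in male Purkinje and Sertoli clones. Aup1, which links droplets to protein degradation, fell by 0.99, 0.86 and 1.1 in the 3 male comparisons, and Hsd17b11, a droplet dehydrogenase, by 1.68 and 1.47 in male and female Purkinje clones. Without CA1 replicate 3 the Cidec difference in female CA1 clones was 0.92 and not called. List medians were -0.11, 0.04, -0.09, 0.00, -0.15 and -0.22 in the same order.

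Triglyceride synthesis had 16 tested genes, of which 4, 1 and 2 were higher and 0, 1 and 2 lower in the males and 4, 1 and 0 higher and 0 lower in the females, with medians between -0.26 and 0.22. Gpam, the first acyltransferase, rose by 1.5 and 2.11 in male Purkinje and CA1 clones, and Acsl1, which activates fatty acids, fell by 1.27 in Sertoli clones. Lpin1, a phosphatidate phosphatase, had differences between -0.44 and 1.98 and Mogat2 between -2.11 and 0.21, and neither passed in any comparison. Of 5 lipolysis genes 2, 2 and 1 were higher in the males and 1, 1 and 1 in the females, with none lower. Pnpla3, a lipase-like droplet protein, rose by 1.99 and 2.20 in male CA1 and Sertoli clones, Abhd5, the co-activator of the main triglyceride lipase, by 1.49 in male Purkinje and 1.56 in cumulus clones, and Mgll differed by -1.02 to 0.44 with no call. With 1 array left out at a time the cumulus value of Abhd5 ran from 0.44 to 1.87 and its call was lost in 25 of 33 fits. It was lowest without cumulus replicate 1 (0.44), and 0.53 without male IVF replicate 4 or female CA1 replicate 2. Neither of the latter arrays is part of that comparison, so the value 0.53 comes from another probe of Abhd5 that stood for the gene. The size of the Abhd5 difference therefore depends on the probe.

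Of 14 tested genes of uptake and binding 1, 4 and 4 were higher and 0, 2 and 0 lower in the males, and 2, 2 and 0 higher and 0 lower in the females. Slc27a3, an acyl-CoA synthetase, rose by 1.78, 2.18 and 1.65 in the males and 1.46 in female CA1 clones, and Angptl4, an inhibitor of Lpl, by 1.51 and 1.48 in male CA1 and Sertoli clones and 1.24 in female CA1 clones. The last call was lost in 23 of 33 fits without 1 array, where Angptl4 ran from 0.67 (without female IVF replicate 3) to 1.95 (without female IVF replicate 1). Vldlr, a lipoprotein receptor, and Slc27a4, a transporter, fell by 1.77 and 1.46 in male CA1 clones. Of 18 oxidation genes 6, 6 and 5 were higher and 1, 1 and 3 lower in the males, and 5, 1 and 0 higher and 0, 1 and 0 lower in the females. Acadl, a long-chain dehydrogenase, rose by 1.36, 0.95 and 1.09 in male Purkinje, Sertoli and female Purkinje clones. Crat, carnitine acetyltransferase, fell by 1.47 and 0.89 in male Purkinje and Sertoli clones, and the short-chain dehydrogenase Acads by 1.20 in Sertoli clones.

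Of 11 transcription factors tested, Cebpb, which drives fat cell differentiation, rose in 4 comparisons, by 1.25, 1.56, 2.18 and 1.51 in male Purkinje, male CA1, female Purkinje and female CA1 clones. Without female IVF replicate 2 the Cebpb difference in female CA1 clones was 0.97 and not called. Srebf2, the regulator of cholesterol synthesis, rose by 1.03, 1.15, 1.09 and 1.28 in male CA1, Sertoli, female Purkinje and female CA1 clones. Mlxip, the paralogue of Mlxipl, fell by 1.63, 1.45 and 2.10 in male Purkinje, male CA1 and female Purkinje clones, and Ppargc1b, a co-activator of mitochondrial genes, by 1.58 and 1.96 in male CA1 and Sertoli clones. Counts on this list were 1, 2 and 1 higher and 2, 3 and 2 lower in the males and 2, 2 and 1 higher and 2, 0 and 0 lower in the females.

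Known targets of ChREBP moved in both directions. Of 9 tested targets 1, 2 and 2 were higher and 4, 1 and 0 lower in Purkinje, CA1 and Sertoli males, and 0, 0 and 1 higher and 3, 0 and 0 lower in Purkinje, CA1 and cumulus females, with medians of -0.34, 0.07, 0.02, -0.45, 0.03 and 0.64. Me1, malic enzyme, rose by 1.70, 1.06 and 2.18 in the males. Fasn, fatty acid synthase, fell by 2.91 and 2.59 in male and female Purkinje clones, and Acaca, acetyl-CoA carboxylase, by 1.90, 1.44 and 1.90 in male Purkinje, male CA1 and female Purkinje clones. Txnip, the target that binds thioredoxin, passed in no comparison with IVF, at differences of -0.12 to 2.75.

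**Figure D5:**
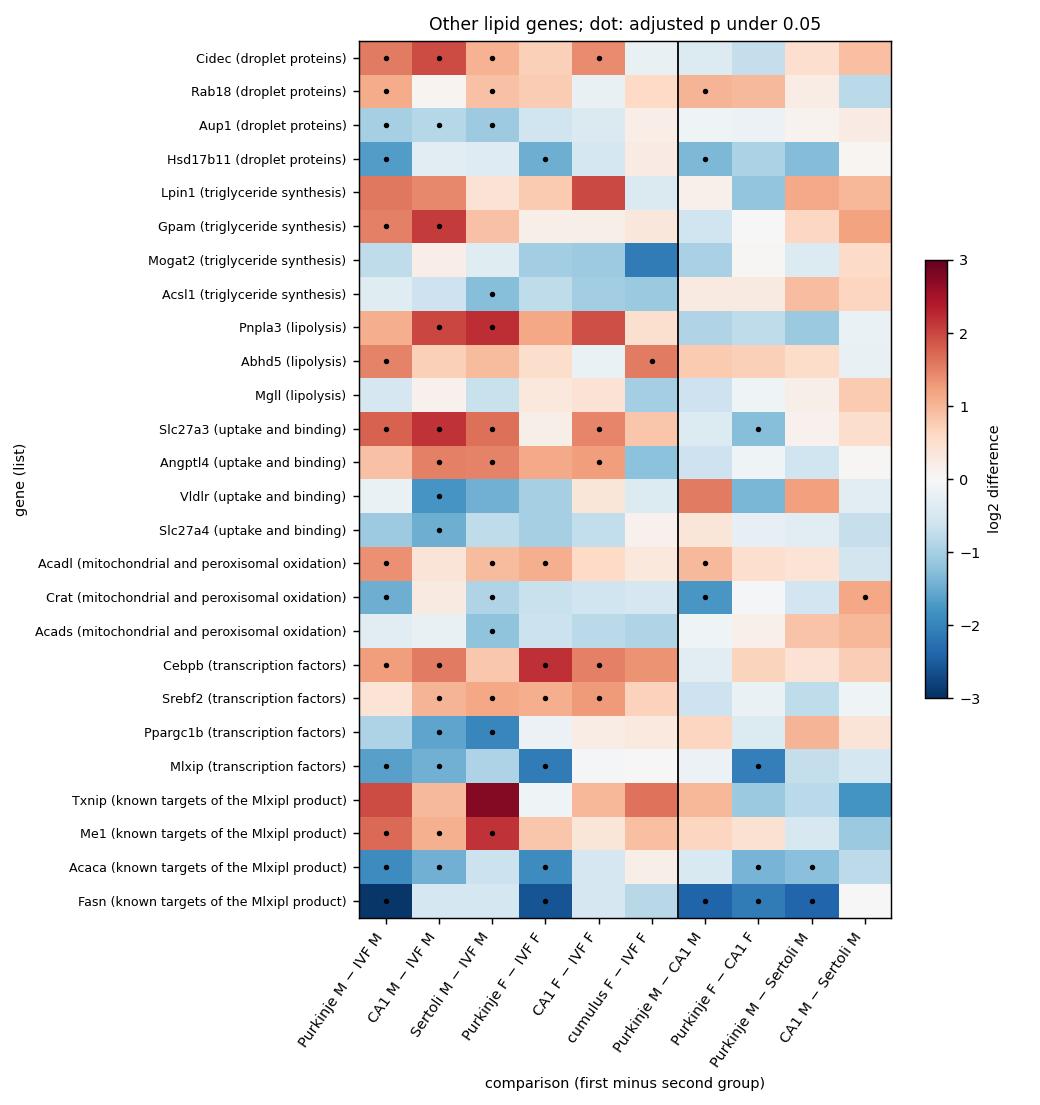
Log2 difference (colour) of 26 other lipid genes (rows, with their list) in 6 comparisons of clones with IVF (left of the line) and 4 between donors (right). Dots mark an adjusted p under 0.05, and Fasn is blue and dotted in all 5 columns that have Purkinje clones first.

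The ChREBP targets were the list with the most lower calls between donors. In male Purkinje clones Fasn stood at 1.56 ± 0.57 against 3.95 ± 0.47 in male CA1 and 3.94 ± 0.81 in Sertoli clones (n = 4 each), lower by 2.39 (adjusted p = 0.000907) and 2.38 (adjusted p = 0.00256), and in females at 1.21 ± 0.47 against 3.30 ± 1.45, lower by 2.09 (adjusted p = 0.00474). Acly, which makes cytosolic acetyl-CoA, fell by 1.31 and 1.06 in the males and 0.81 in the females. Acaca fell by 1.40 in female Purkinje against CA1 clones and 1.26 in male Purkinje against Sertoli clones, the desaturase gene Scd1 by 1.20 and 1.06 in the same pair of comparisons, and Elovl6, an elongase, by 0.86 and 0.74 against male CA1 and Sertoli clones. Scd1 was also lower in CA1 than in Sertoli clones, by 0.92. Of 9 genes 3, 4, 5 and 1 were lower and 0 higher in the 4 comparisons (male Purkinje minus CA1, female Purkinje minus CA1, Purkinje minus Sertoli, CA1 minus Sertoli), with medians of -0.41, -0.81, -0.80 and 0.01. Of all genes 7.59%, 4.83%, 1.42% and 6.32% were lower and 10.9%, 6.19%, 3.36% and 5.52% higher. The Fasn calls were lost when its probes were averaged (-1.48, -1.60 and -1.30). Without the low-signal Purkinje arrays the male Fasn calls were lost too (-2.11 and -2.09, limma adjusted p = 0.0562 and 0.103). The female value there, which rests on 1 Purkinje array, was -2.44. In that setting all 10 calls of listed genes in Purkinje minus Sertoli were lost, among them the 5 of the ChREBP targets. In male Purkinje minus CA1 15 of 18 calls of listed genes were lost.

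Among genes of the other lists, Acadm, the medium-chain dehydrogenase, rose in Purkinje clones by 0.94 and 0.71 against male and female CA1 and by 0.79 against Sertoli clones, and none of its calls held without the low-signal arrays or after normexp correction. In males, Purkinje minus CA1 was also positive for Etfdh (1.12), Acsl3 (1.15), Rab18 (1.02), Acadl (0.97) and Hilpda (0.78). It was negative for Crat (-1.74), Hsd17b11 (-1.36), Lmf1 (-1.22), Agpat3 (-1.19), Slc27a1 (-0.99), Acaa2 (-0.87), Hadha (-0.84) and Echs1 (-0.62), all past the threshold. Hadha turned to 0.18 when its probes were averaged. In females it was positive for Acsl6 (0.89) and Etfb (0.67) and negative for Mlxip (-2.04), Bscl2 (-1.74), Slc27a3 (-1.27) and Srebf1 (-0.76).

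Against Sertoli clones, male Purkinje clones were also higher in Pnpla2 (0.66) and lower in Acaa2 (-0.88) and Srebf1 (-0.81). CA1 clones were higher than Sertoli clones in Lmf1 (1.41), Agpat1 (1.35), Agpat3 (1.22), Crat (1.16) and Acadvl (1.06), and lower in Etfdh (-0.71). Of the 47 calls of listed genes between donors 36 were lost without the low-signal Purkinje arrays, 11 of them in the female comparison with its 1 Purkinje array, and 29 after normexp background correction, against 8 after quantile normalization. Of 106 calls of listed genes, in comparisons with IVF or between donors, 56 were kept in every fit without 1 array. Those lost in the most fits, besides Abhd5 and Angptl4 above, were Srebf1 in male Purkinje minus Sertoli clones, which ran from -0.98 to -0.64 and lost its call in 22 of 33, Rab18 in male Purkinje minus CA1 clones, at 0.88 to 1.24 and lost in 21, and Slc27a1 in the same comparison, at -1.19 to -0.88 and lost in 15.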

How the data were processed

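Single blastocysts were hybridised, 1 per Agilent 1-colour array (Cy3, mouse 4x44K design), after RNA had been amplified in 2 rounds, per the labels' protocols. The files hold probe intensity as Agilent Feature Extraction wrote it, background-corrected by that software and not normalized between arrays, per the file headers (versions 10.5.1.1 and 9.5.3.1). The submitters' processing notes name 10.5.1. The authors also deposited a value table on the log2 scale, which equalled the log2 values used here after centring each gene within a sex, with a median absolute difference of 0.012 over the 19 male arrays and 0.0051 over the 14 female ones. Column medians of the authors' table were -0.59 to 0.77, and its direction was settled by that match, while its exact floor is not given in the sources used here.

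Each array was divided by its 75th percentile, floored at 0.09286 of it (22.2% of the values kept lay on the floor) and put on the log2 scale. Control spots were left out, and probes stayed in where over 50% of any group's arrays read them well above background and at least 3 arrays above the floor, which left 22789 probes. The brightest kept probe stood for a gene. Group means of all 8 groups were fitted with limma 3.58.1 in R 4.3.3 (25 residual degrees of freedom), adjusted by Benjamini-Hochberg over 15793 genes and called at 0.05. Probe names were brought up to date through RefSeq accessions (22951 probes), symbols (6659) or synonyms (3105), and 8459 kept the name in the files. The limma fit was tested on simulated log2 values that had no floor, and the steps before it were not tested in this way.

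The members and lists were chosen with earlier results of these data known, and the lists partly follow work that had seen the arrays. Calls of members, against IVF or between donors, are therefore given as a description and support nothing. Genes from the lists are named if they were called between donors, or if they had the 2 largest rises or the 2 largest falls of their list, by the mean over the 6 comparisons with IVF. A few listed genes that meet this rule are counted but not reported here by name. For Cidea the 5 genes with the highest Pearson r are named. Alternatives were scaling to the array median, quantile normalization, normexp correction (on the median signal, chosen after seeing the data, since not all files hold the mean), the authors' values, no filter, the mean of a gene's probes, slide or replicate number as a block, leaving out 5 Purkinje arrays with a 75th percentile under 500, and leaving out each array. The number of arrays limits the precision.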

Additional observations from a re-analysis of the deposited data

Results flagged for a closer look

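Of 54 combinations of a gene and a group of 4 or 7 blastocysts 7 held 1 array farther from the rest than Dixon's 95% limit, and chance gives about 1 in 20. In female Purkinje clones, Cidea read 4.56 in replicate 3, against 2.62 to 2.80 in the other 3. Male CA1 clones had 3 such values: Plin2 at 7.08 and Fabp3 at 8.47 in replicate 2, where the nearest other arrays read 6.82 and 8.12, and Dgat2 at 2.52 in replicate 1, with the others at 1.1 to 1.32. Lpl read -1.40 in replicate 1 of the male Purkinje clones, below -0.34 to -0.17 in the others, and 2.63 in replicate 1 of the male IVF blastocysts, above 1.17 to 1.76. Mlxipl read -2.48 in male IVF replicate 5, the 1 male on the slide of the IVF females, where the next highest male read -3.11 and the other 5 lay on the floor, so the floor sets the spread there.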

How the results depend on the processing

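Of 1092 values of members called in a comparison and recomputed under an alternative 998 kept their direction and call, 90 lost the call and 4 turned sign. Leaving out 1 array, mostly of a group not compared, supplied 858 of the 1092 values, and 800 of these stayed. In the other settings between 16 (normexp) and 26 (no filter, mean of a gene's probes) of 26 calls stayed, with 18 after quantile normalization. The reversals were Fabp3 in male Purkinje minus IVF (-0.07 after quantile normalization, -0.0165 after normexp) and female Purkinje minus IVF (-0.0463 with the array median, -0.20 after quantile normalization). Among the listed genes 3921 of 4448 values stayed, 526 lost the call and Hadha turned to 0.18 in male Purkinje minus CA1 with its probes averaged. Leaving out 1 array supplied 3494 of the 4448 values, and 3203 of these stayed. Of 106 calls of listed genes 51 stayed after normexp, 78 with the array median and 90 after quantile normalization. The number of members called for female Purkinje minus IVF (3) was 1 after quantile normalization and 1 without the low-signal Purkinje arrays. For female CA1 minus IVF (2) it was 1 after normexp. For cumulus minus IVF (1) it was 0 with the array median, quantile normalization, normexp, the slide as a random block or the low-signal arrays left out, at Mlxipl adjusted p between 0.0532 and 0.151. For Purkinje minus CA1 it was 0 in males (1) after quantile normalization, and in females (1) 3 with the array median and 0 after quantile normalization, normexp or without the low-signal arrays. For Purkinje minus Sertoli (1) it was 0 after quantile normalization, and for CA1 minus Sertoli (0) 1 without the low-signal arrays. The other counts stayed within 1.5 times.

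Leaving out 1 array at a time gave 4 to 6 members for male Purkinje, 5 to 5 for male CA1 and 5 to 7 for Sertoli clones minus IVF, and 1 to 5 for female Purkinje, 2 to 3 for female CA1 and 0 to 1 for cumulus clones. Between donors it gave 1 to 2 for male Purkinje minus CA1, 1 to 3 in females, 1 to 1 for Purkinje minus Sertoli and 0 to 0 for CA1 minus Sertoli, IVF males minus females and the interaction. Female Purkinje minus IVF had 5 without its Purkinje replicate 1 and 1 without replicate 2 or 4. Male Purkinje minus CA1 had 2 without Purkinje replicate 1, Sertoli replicate 4, male CA1 replicate 2 or female CA1 replicate 4, and the female comparison 2 without Purkinje replicate 1 and 3 without CA1 replicate 1. The cumulus call was lost without any 1 of 15 arrays: cumulus replicate 1 or 2, female IVF replicate 2 or 3, male Purkinje replicate 2 or 4, female Purkinje replicate 2 or 4, male CA1 replicate 1, 2 or 3, female CA1 replicate 1, 3 or 4, or Sertoli replicate 2. Arrays of groups not compared enter there only through what all groups share, such as the spread and the choice of the Mlxipl probe. The Fabp3 calls between donors stayed in all 33 such fits.

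Replicate numbers do not pair the blastocysts: over 40 pairs of same-numbered arrays the correlation of deviations ran from -0.21 to 0.31 and passed 0.1 in 8. With the replicate number as a block, members called for male Purkinje minus IVF were 4 (6 without it), Fabp3 at 0.46 (adjusted p = 0.0738) and Fabp5 at 1.12 (adjusted p = 0.107), and Lpl in Sertoli minus IVF was -1.68 (adjusted p = 0.11), with the other 23 called values on the same side.

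With all arrays or the low-signal ones left out, the genes called were 1608 to 8667 for male Purkinje (4513 reported), 2779 to 5242 for male CA1 (4894), 1675 to 4343 for Sertoli (4075), 225 to 7316 for female Purkinje (3114), 453 to 2499 for female CA1 (2098) and 152 to 1110 for cumulus clones (839) minus IVF. They were 537 to 7729 for male and 53 to 3151 for female Purkinje minus CA1 (2921 and 1741), 132 to 4250 for Purkinje minus Sertoli (756), 234 to 1921 for CA1 minus Sertoli (1869), 10 to 145 for IVF males minus females (69) and 8 to 553 for the interaction (343). The share of calls that was higher moved with the array median from 57.0% to 39.4% (male CA1 minus IVF), 58.2% to 41.9% (Sertoli), 63.3% to 51.0% (female CA1), 36.7% to 47.2% (cumulus), 59.0% to 40.2% and 56.2% to 8.3% (male and female Purkinje minus CA1), 70.2% to 45.3% (Purkinje minus Sertoli), 26.1% to 9.0% (IVF males minus females) and 47.8% to 82.6% (interaction). Quantile normalization gave 47.4% for Sertoli and 44.2% for female CA1 minus IVF, 46.8% for male Purkinje minus CA1 and 58.9% for Purkinje minus Sertoli, and normexp 75.8%, 28.9%, 83.2% and 76.1% in the 4 donor comparisons, 60.0% between the IVF sexes and 0.0% for the interaction. The median difference of all genes passed 0.1 with the array median (-0.13 and -0.32 for male and female Purkinje minus IVF, -0.37 for female Purkinje minus CA1, -0.20 between the IVF sexes, 0.31 for the interaction), with normexp (0.58, 0.11, 0.59 and 0.37 for male Purkinje, Sertoli, female Purkinje and female CA1 minus IVF, 0.53, 0.40 and 0.46 for the Purkinje comparisons between donors, 0.14 between the IVF sexes, 0.23 for the interaction) and with the authors' values (0.24, 0.18, 0.17, 0.29 and 0.23 for the neuronal and Sertoli clones minus IVF). The causes were not tested. Dim arrays limit the precision.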

Other observations

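The other probe of Mlxipl stood for the gene in 14 of 34 alternative settings, since both are nearly equally bright. No other member changed its probe.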
